A study of Mus musculus with 6 samples.

Results

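Cytosolic ribosomal proteins are the protein part of the ribosomes that translate nuclear messages, and their genes were compared here between mouse kidneys with a longer and a shorter past ischaemia. The genes were chosen by name and not by any measured value: protein-coding genes named Rps or Rpl and a digit, the stalk genes Rplp0, Rplp1 and Rplp2, and Rpsa, without the S6 kinases and rows named as pseudogenes. This took 87 of the 35275 genes in the table. Of these, 77 are canonical ribosomal proteins, 31 of the small and 46 of the large subunit. A further 9 are paralogs, encoded by related extra copies, and Rps19bp1 matches the name but encodes a binding partner of the small-subunit protein Rps19. All libraries came from whole kidney of wild-type C57Bl/6 mice, 28 days after ischaemia-reperfusion injury, in which blood flow to the kidney is stopped and then restored. Ischaemia lasted 20 min in the mild group and 35 min in the severe group, with 3 poly-A RNA libraries each. Uninjured kidneys were not analysed here, and no label states that each kidney is from its own mouse, so a p-value here covers only the spread among these samples, which may be technical.

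The ribosome has a small subunit, which reads the message, and a large subunit, which joins the amino acids. Most of their proteins are made from single-copy genes in equal numbers per ribosome. Their messages are short and abundant and usually begin with an unbroken run of pyrimidines, the 5′ terminal oligopyrimidine (TOP) tract, through which mTOR and the RNA-binding protein LARP1 control their translation. The amount of such a message therefore need not follow the amount of protein made from it. In kidney, mTOR signalling and ribosome production are known to respond to tubular injury and regrowth.

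The start-site sequences below show genes with and without a pyrimidine run near their annotated start. Such a run can begin before or after the start and is not shown to be the TOP tract. They are windows of 30 bases on the strand of the gene, from the RefSeq promoter table of build GRCm38.p6, with an unbroken run of at least 8 C or T in capitals where 1 was found between 30 bases before and 50 bases after the start. Rplp2 is a stalk protein, Rpl15 a core protein of the large subunit and Rps27 a small-subunit protein with 2 paralogs. Rps27rt, a near copy of Rps27, and Rpl22l1, a paralog of Rpl22, had the highest fold changes among paralogs, and Rpl7l1 had all severe libraries below the mild ones. Rps28 is the small-subunit gene with the highest fold change. The windows lie at chr7:141447638-141447667 (Rplp2), chr14:18270969-18270998 (Rpl15), chr3:90213629-90213658 (Rps27), chr9:114982718-114982747 (Rps27rt), chr3:28805501-28805530 (Rpl22l1), chr17:33824541-33824570 (Rps28) and chr17:46782635-46782664 (Rpl7l1).
Rplp2: cgtcagcgTCTTCCTTTCgccgccggacgc
Rpl15: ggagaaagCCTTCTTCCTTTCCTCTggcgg
Rps27: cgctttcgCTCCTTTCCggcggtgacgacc
Rps27rt: atcccttgctttccggcggtgacgacctcc
Rpl22l1: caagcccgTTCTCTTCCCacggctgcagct
Rps28: cgtgcggtctcgcgagagcgaaagtgaggc
Rpl7l1: tgcgcaagcgcagtagctgaagcaccggaa

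The run has 10 pyrimidines in Rplp2 and Rpl22l1, 17 in Rpl15 and 9 in Rps27, and no run of that length was found near the annotated starts of Rps27rt, Rps28 and Rpl7l1. The Rps27 and Rps27rt promoter sequences of 300 bases share a longest identical stretch of 38 bases, while those of Rps27 and Rps27l share at most 10. Of the 77 canonical genes 57 have an entry in the promoter table, and 45 of them (78.9%) carry such a run, against 32.3% of 27025 genes. The letters CCGGAAG, the core bound by ETS factors, were sought on either strand in any promoter of that length of a gene. They were found for 42.1% of the 57 genes and 9.93% of all 27025 genes. The corresponding shares were 61.4% and 38.2% for the GC box GGGCGG, 31.6% and 41.1% for CCAAT, 10.5% and 15.7% for TATAAA, and 8.77% and 3.19% for AAGATGGC, which can overlap the first codon. A match is a description of letters and does not show a bound site.

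No ribosomal protein gene passed the test between severe and mild kidneys. With edgeR's quasi-likelihood test and Benjamini-Hochberg adjustment over all 14883 tested genes, 0 of 85 tested members had an adjusted p under 0.05, where 0.0134% of all genes did. At an unadjusted p under 0.05 there were 0 members higher and 1 lower in severe kidneys, against 15.8% of all genes higher and 7.89% lower. The adjusted p of the 85 members lay between 0.161 and 0.993. DESeq2 called 0 members and 7.87% of all genes, with 2 members higher and 1 lower at an unadjusted p under 0.05, against 14.7% and 8.94% of all genes. Limma-voom called 0 members and 0.0134% of all genes, with 0 members higher and 1 lower unadjusted, against 14.4% and 8.85% of all genes.

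The differences were small and mostly of 1 sign. The median log2 fold change, severe over mild, was 0.09 over the 85 tested members and 0.00 over all tested genes, and it lay above 0 for 69 members, where 50.1% of all genes lay above 0. All 3 severe libraries stood above all 3 mild ones for 19 members, or 22.4% of those tested, against 17.9% of all tested genes. All 3 stood below for 2 members, the paralog Rpl7l1 and Rps19bp1, against 16.1% of all genes. The 19 were canonical genes, 9 of the small and 10 of the large subunit. The share of members separated upward is near that of all genes on the TMM scale, while with an offset for length and GC content it was 37.6% against 18.1%, and 1.18% against 16.8% downward. The median SE of a single canonical gene's log2 fold change was 0.10. When the libraries were scaled by their total counts instead, the median of all genes moved to 0.17 and that of the members to 0.26. The distance between these medians was 0.09 on both scales, which a change of scaling factors could hardly alter, since it shifts all genes alike. That distance was 0.16 with the offset for length and GC content, 0.04 with sample quality weights in limma-voom and 0.04 without severe library 14.

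**Figure D1:**
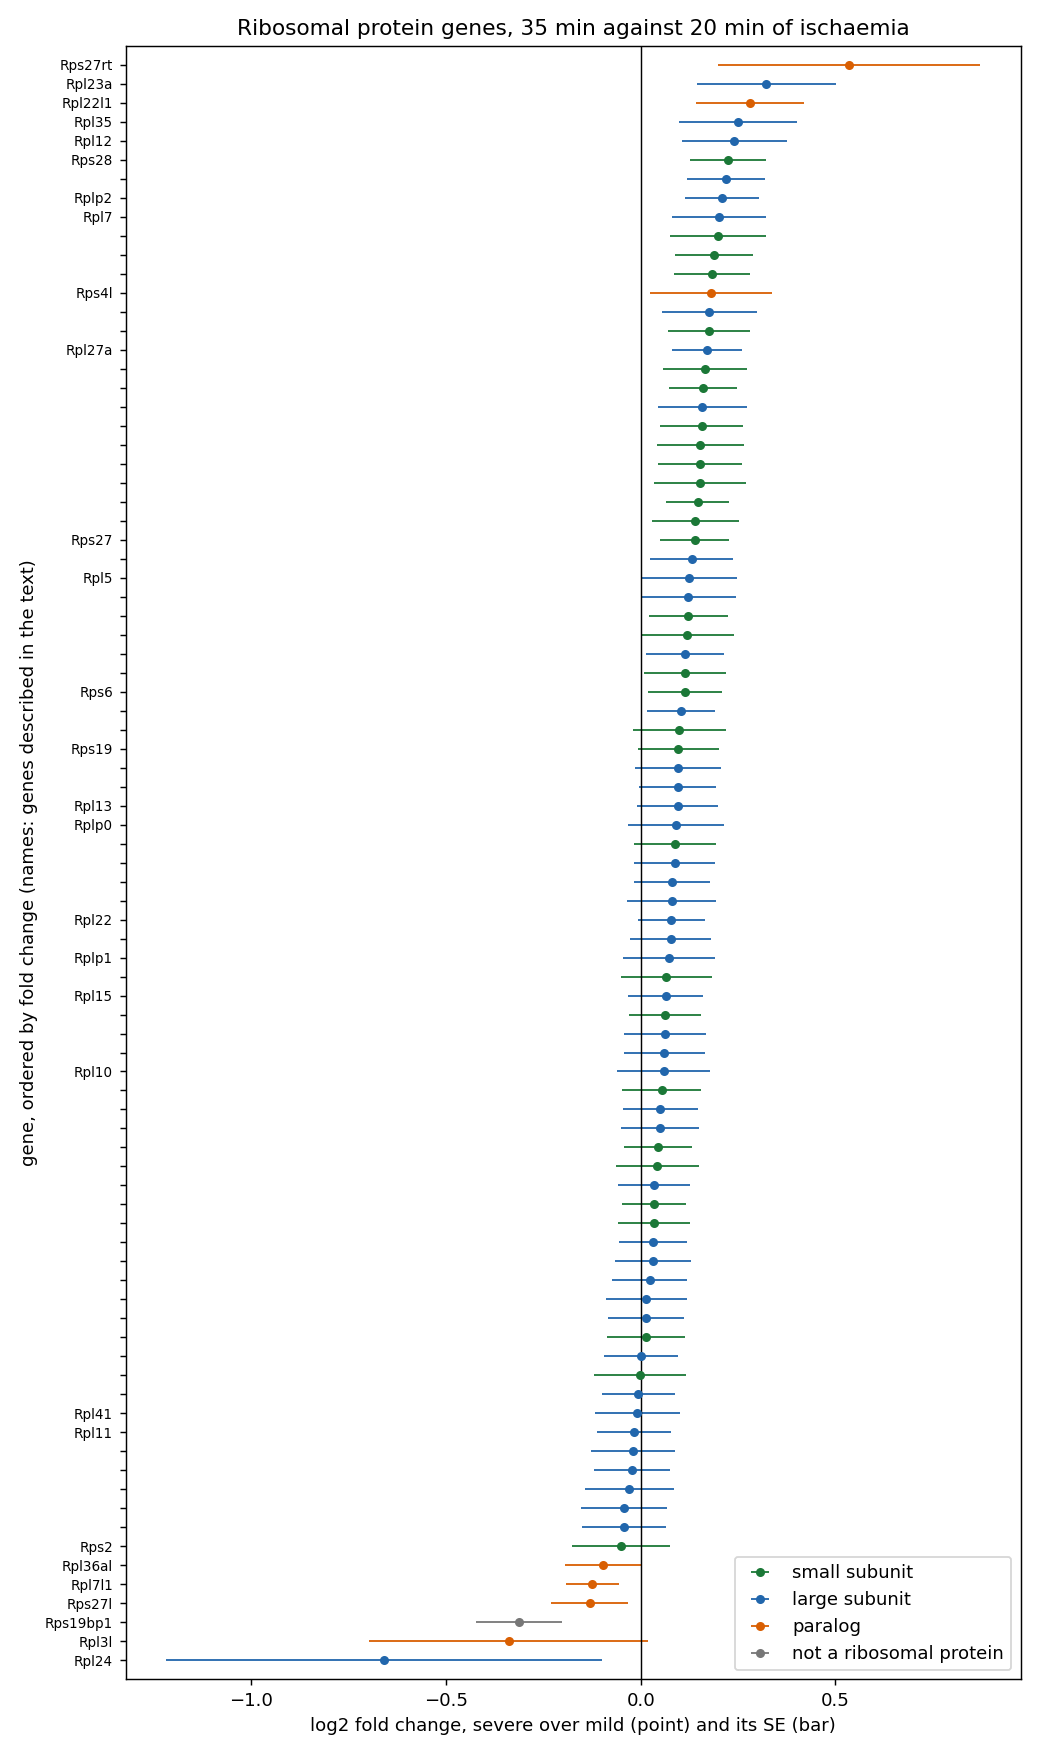
Log2 fold change of each of the 85 tested genes, severe over mild kidneys (point), with its standard error (bar), ordered by size and coloured by class, with names for genes described in the text. Most points lie between 0 and 0.25, 69 lie to the right of 0, and the widest bars belong to Rpl24, Rpl3l and Rps27rt, the genes with the fewest counts.

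The measured level of the family as a share of all gene counts was also higher in the severe group. The 77 canonical genes took 1.84%, 1.74% and 1.76% of all gene counts in mild libraries 7, 8 and 9, and 1.88%, 2.47% and 2.03% in severe libraries 13, 14 and 15. Every severe library was above every mild one, and library 14 stood far above the rest. The means were 1.78% ± 0.05 and 2.13% ± 0.31 (SD, n = 3), a ratio of 1.19. On the TMM scale, where the severe factors were larger, the summed canonical level had a ratio of 1.06. It stood at 19519, 18473 and 18640 CPM in mild libraries and at 19271, 21195 and 19427 CPM in severe ones, and the groups overlapped.

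The severe libraries were not alike. Relative to each gene's mild mean, the median log2 difference over the members was 0.05, -0.03 and -0.02 in mild libraries 7, 8 and 9 and 0.03, 0.18 and 0.04 in severe libraries 13, 14 and 15. Library 14 was high, and libraries 13 and 15 lay below mild library 7. Of the 74 canonical genes with a mild mean of at least 50 CPM, 59 were highest of all 6 libraries in library 14, and 28, 59 and 31 exceeded the highest mild library in libraries 13, 14 and 15. Mild library 7 was the highest mild library for 56 of the 74. The SD relative to the mean was larger in the severe group for 60 of them. Without library 14 the median over the members was 0.04, with 22 members separated upward against 20.1% of all genes. Without mild library 7 the number separated upward was 48 against 22.9%, and without severe library 13 it was 33 against 29.7%. In none of these did a member pass the threshold in edgeR, where 3.33% of all genes passed without library 14, 0% without mild library 7 and 21.5% without library 13.

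Markers of fibroblasts, macrophages, proximal tubule and injured tubule differed most from the mild libraries in severe library 14. So did those of loop and distal nephron, podocytes, B cells, neutrophils, proliferation and adrenal or liver tissue. Endothelial, T and NK cell and erythroid markers did not. Of all tested genes, 17.9% were separated upward and 16.1% downward. The summed level of 9 fibroblast and myofibroblast markers ranged from 578 to 730.3 CPM in mild libraries and was 1213, 3993 and 2063 CPM in severe libraries 13, 14 and 15, with all 9 markers separated upward. For 11 macrophage and monocyte markers the mild range was 382 to 466 CPM and the severe values were 732, 1372 and 866 CPM, with all 11 separated upward. The 14 proximal tubule markers, which define the main cell type of the kidney cortex, summed to 36836 to 39268 CPM in mild and to 31859, 16293 and 28806 CPM in severe libraries, with 12 separated downward. The 9 markers of loop, distal tubule and collecting duct summed to 8176 to 8425 CPM in mild libraries. In severe libraries 13, 14 and 15 they summed to 7657, 4613 and 7015 CPM, with 2 separated downward. Markers of injured tubule summed to 1767 to 2354 CPM in mild and to 2465, 9032 and 4751 CPM in severe libraries, with 3 of 6 separated upward. Proliferation markers summed to 27.2 to 37.7 CPM in mild and to 40.9, 79.0 and 47.0 CPM in severe libraries, with 3 of 5 separated upward. Endothelial markers summed to 302 to 348 CPM in mild and to 381, 308 and 335 CPM in severe libraries, with 1 of 5 separated upward. Podocyte markers summed to 413 to 421 CPM in mild and to 406, 347 and 418 CPM in severe libraries, with 2 of 5 separated downward. For T and NK cell markers the mild range was 5.37 to 12.1 CPM and the severe values were 8.48, 14.8 and 15.7 CPM. No defining marker of these lists was at 0 in all libraries. The part of cell makeup in the ribosomal protein values was not tested, and in bulk kidney fewer cells of a type and less RNA per cell cannot be told apart.

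Among abundant genes most log2 fold changes lay below 0, while most of those of the ribosomal protein genes lay above 0. This comparison was chosen after the values were seen. Among 4053 tested genes with a mild mean of at least 50 CPM, the median log2 fold change was -0.13, 8.86% were separated upward and 35.9% downward, and 25.5% had a value above 0. Of the 74 canonical genes at that level the median was 0.09, 19 were separated upward and 0 downward, and 64 had a value above 0. The middle 50% of the 74 values spanned 0.11 on the log2 scale and that of the 4053 genes 0.29. The difference between both medians was 0.22, and 0.12 without severe library 14. Over all settings tried it lay between 0.12 and 0.29, the highest without severe library 13 and with an offset for length and GC content.

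Small-subunit genes had a median log2 fold change of 0.12 (31 genes, 29 above 0) and large-subunit genes one of 0.07 (46 genes, 37 above 0). The difference between subunits was not tested. By library, the ratio of summed small-subunit to large-subunit counts was 0.658 ± 0.005 in mild and 0.668 ± 0.007 in severe kidneys (SD, n = 3).

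In the small subunit, Rps28, a small protein at the exit of the message channel, had the highest fold change. It stood at 94.9, 96.4 and 89.9 CPM in mild and at 104, 124 and 101 CPM in severe libraries. All severe values were above the mild ones, and the log2 fold change was 0.22 ± 0.10 (SE, adjusted p = 0.215, edgeR). Rps6, the substrate of S6 kinase, stood at 248, 235 and 243 CPM in mild and 253, 274 and 257 CPM in severe libraries, separated by a narrow margin, with a log2 fold change of 0.11 ± 0.10 (adjusted p = 0.470, edgeR). Rps27, a zinc-finger protein of the small subunit, overlapped between groups, at 136, 127 and 121 against 134, 151 and 137 CPM, with a log2 fold change of 0.14 ± 0.09. Rps2, which binds near the entry of the message channel, stood at 728, 711 and 753 CPM in mild and at 737, 674 and 705 CPM in severe libraries. It had the lowest value of the small subunit, -0.05 ± 0.13, and moved to 0.12 with library totals, a scale on which all genes moved by 0.17. Library 14, the highest for most members, was the lowest for Rps2.

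The stalk of the large subunit, made of Rplp0, Rplp1 and Rplp2, recruits the elongation factors. Rplp2 stood at 157, 172 and 172 CPM in mild and at 182, 206 and 191 CPM in severe libraries. The severe values were all above the mild ones, with a log2 fold change of 0.21 ± 0.09 (adjusted p = 0.222, edgeR). Rplp0, on which Rplp1 and Rplp2 assemble, was also separated, at 664, 667 and 642 against 688, 738 and 676 CPM, with a log2 fold change of 0.09 ± 0.12. Rplp1 overlapped, at 406, 359 and 356 against 373, 423 and 383 CPM, with a log2 fold change of 0.07 ± 0.12. All 3 stalk genes had values above 0 on the TMM scale, and Rplp1 moved to -0.01 when the libraries were scaled to the summed canonical counts.

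Rpl12, which sits at the base of the stalk, had the highest fold change of large-subunit genes with at least 50 CPM. It stood at 169, 153 and 154 CPM in mild and at 159, 224 and 179 CPM in severe libraries, and the groups overlapped because library 13 lay below mild library 7. The log2 fold change was 0.24 ± 0.14 (adjusted p = 0.295, edgeR). Rpl35 stood at 21.1, 22.5 and 23.4 CPM in mild and 22.2, 33.2 and 24.3 CPM in severe libraries, and Rpl23a at 8.67, 9.57 and 9.19 against 10.2, 14.6 and 9.52 CPM. Both proteins sit where the new protein chain leaves the ribosome, both overlapped between groups, and in both library 14 was the highest. Their log2 fold changes were 0.25 ± 0.15 and 0.32 ± 0.18 (adjusted p = 0.325 and 0.289, edgeR).

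Rpl5 and Rpl11 form a particle with 5S rRNA that, outside the ribosome, binds the p53 ligase Mdm2. Rpl5 stood at 306, 275 and 286 CPM in mild and at 289.9, 358 and 296 CPM in severe libraries, and Rpl11 at 281, 268 and 270.1 against 269, 275 and 266 CPM. Both overlapped, with log2 fold changes of 0.12 ± 0.12 and -0.02 ± 0.09, and Rpl11 lay above 0 with upper-quartile and library-total scaling, at 0.02 and 0.15. Rpl22 stood at 148, 144 and 144 CPM in mild and 148, 164 and 148 CPM in severe libraries, with a log2 fold change of 0.08 ± 0.09.

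**Figure D2:**
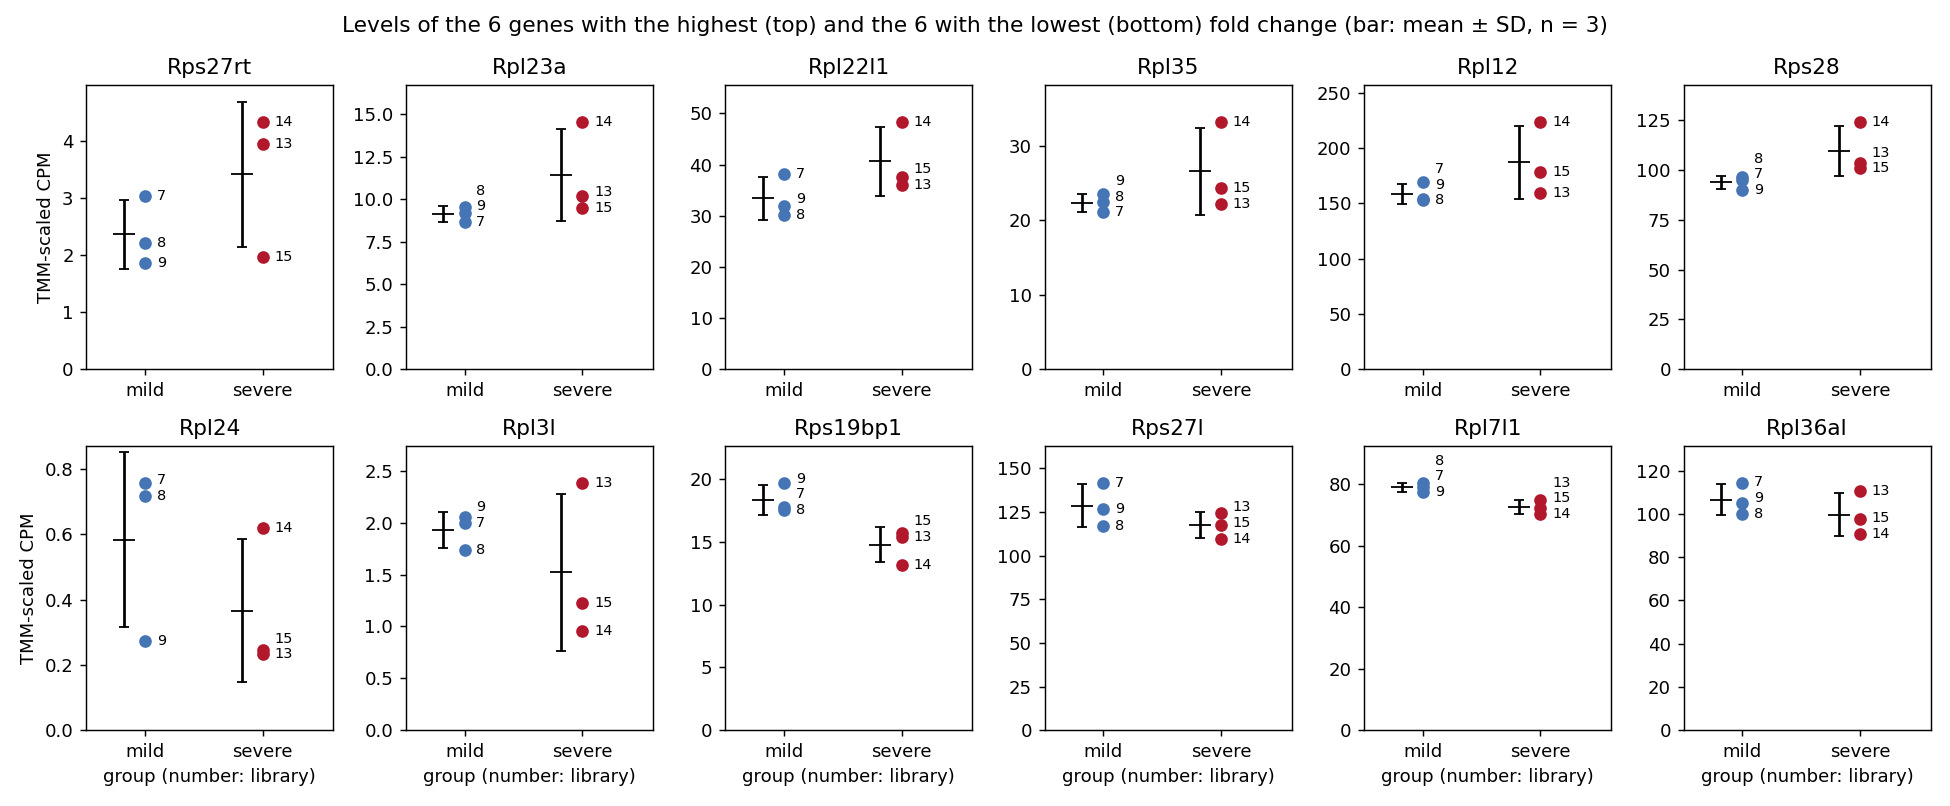
TMM-scaled CPM in each library (points, numbered by library) of the 6 genes with the highest log2 fold change (top row) and the 6 with the lowest (bottom row), with mean ± SD (n = 3) as bars and axes from 0. Groups are separated for Rps28, Rps19bp1 and Rpl7l1, and library 14 is the highest library for every gene of the top row.

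Of the 9 paralogs 7 were tested, and their median log2 fold change was -0.10, with 3 above 0 and 4 below. This median is below that of all genes on the TMM scale. On library totals it was 0.06 against 0.17 for all genes, a scaling that shifts all genes alike. Rpl7l1, a factor of large-subunit assembly related to Rpl7, stood at 79.2, 80.4 and 77.6 CPM in mild and at 75, 70.4 and 72.3 CPM in severe libraries. The severe values were all lower, and the log2 fold change was -0.12 ± 0.07 (adjusted p = 0.282, edgeR). Its parent Rpl7 stood at 352, 342 and 341 against 360.3, 443 and 386 CPM, with all severe libraries above, and was named after its values were seen. Rps27l, a paralog of Rps27 and a known p53 target, overlapped at 142, 117 and 127 against 125, 109.7 and 118 CPM, with a log2 fold change of -0.13 ± 0.10. Rpl36al, which encodes nearly the same protein as Rpl36a, overlapped at 114, 100.2 and 105 against 111, 90.8 and 97.7 CPM, at -0.10 ± 0.10. In each of these 3 library 14 was the lowest library, and each moved above 0 with library totals, to 0.04, 0.03 and 0.06.

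Rpl22l1, the paralog that can replace Rpl22, stood at 38.2, 30.2 and 32.0 CPM in mild and at 36.0, 48.3 and 37.5 CPM in severe libraries. The groups overlapped, and the log2 fold change was 0.28 ± 0.14 (adjusted p = 0.248, edgeR). Rps4l, a paralog of the X-linked Rps4x, overlapped at 13.8, 12.2 and 12.7 against 17.2, 11.6 and 15.1 CPM, at 0.18 ± 0.16. Rps27rt had the highest value of all members, 0.53 ± 0.34 (adjusted p = 0.339, edgeR), from low levels of 3.03, 2.21 and 1.85 against 3.95, 4.33 and 1.97 CPM. The groups overlapped, library 15 lay within the mild range, and with quality weights the value was -0.10. Rpl3l, a paralog known from muscle, stood at 1.997, 1.74 and 2.06 against 2.38, 0.955 and 1.23 CPM, at -0.34 ± 0.36. Rpl10l and Rpl39l, known from testis, had 0 counts in every library, which allows up to 3 counts or 0.169 to 0.207 CPM per library, and were not tested. The rows Rps3a2, Rps3a3 and the one matched to Rpl26l1 are typed as pseudogenes in the table and are not members.

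Rps19bp1, the binding partner of Rps19, was the member with the smallest p. It stood at 17.8, 17.5 and 19.7 CPM in mild and at 15.4, 13.2 and 15.7 CPM in severe libraries. All severe values were lower, and the log2 fold change was -0.31 ± 0.11 (edgeR, adjusted p = 0.161, before adjustment 0.0232). Rps19 itself, named because of this partner, stood at 247, 225 and 238 CPM against 247, 273 and 239.6 CPM and overlapped.

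Genes for ribosomal proteins that fall outside the naming rule were also examined. Fau, whose product is cut to release Rps30, stood at 238, 235 and 249.5 CPM in mild and at 232, 226 and 228 CPM in severe libraries, all lower, at -0.08 ± 0.09, and at 0.09 with library totals. Gnb2l1, the Rack1 scaffold on the small subunit, stood at 323, 318 and 332 against 325, 378 and 333 CPM, at 0.09 ± 0.11. All severe libraries stood below the mild ones for 16.1% of all genes, and for 35.9% of those with a mild mean of at least 50 CPM. No test compared Fau with the members.

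Levels can be compared between genes only per length, as CPM per kilobase of an annotated transcript. For each gene a transcript of middle length was taken among those annotated as principal, or among all where none was. On that scale the median canonical gene stood at 315 CPM per kilobase in mild kidneys. Among the highest in mild kidneys were the stalk gene Rplp1 at 748 ± 56.0, Rps2 at 732 ± 21.2, Rpl10 at 686 ± 12.6 and the short Rpl41 at 536 ± 43.7 CPM per kilobase (SD, n = 3). Rplp1 and Rps2 did not differ beyond their spread. In severe kidneys these 4 stood at 787 ± 53.5, 707 ± 31.3, 714 ± 38.8 and 533 ± 20.97. The order of Rps2 and Rpl10 was exchanged there, within their spread. Rpl10 and Rpl41 had log2 fold changes of 0.06 ± 0.12 and -0.01 ± 0.11, and that of Rpl41 changed sign under some scalings.

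**Figure D3:**
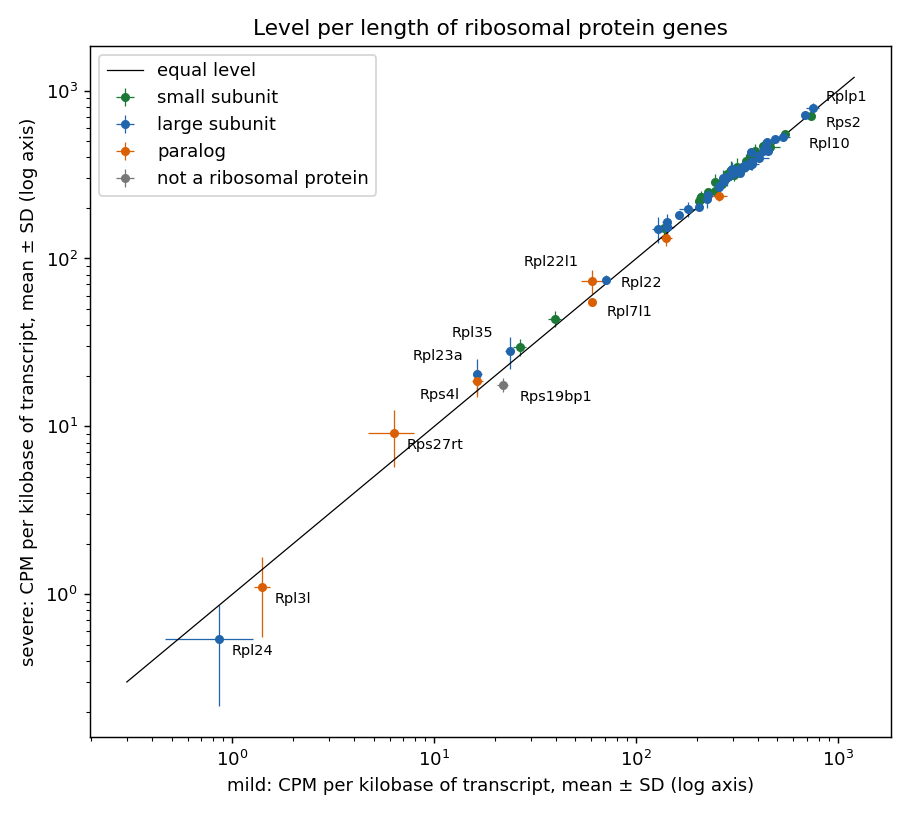
Level per length of each tested gene in mild (x axis) and severe kidneys (y axis), as mean ± SD of CPM per kilobase of transcript on log axes, with the line of equal level. Most canonical genes lie between 100 and 800 CPM per kilobase close to the line, and the lowest levels are those of Rpl24, Rpl3l and Rps27rt.

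The lowest levels per length belonged to Rpl24 (0.861 ± 0.396 in mild kidneys), Rpl3l (1.40 ± 0.12), Rps27rt (6.32 ± 1.61), Rpl23a (16.3 ± 0.803) and Rps4l (16.4 ± 1.07 CPM per kilobase). Rpl24 is a universal part of the large subunit, yet it had 11, 12 and 4 counts in mild and 4, 11 and 4 in severe libraries. Of its span, 98.7% lies under a processed transcript on the same strand, Gm28037. Its log2 fold change of -0.66 ± 0.56 was the lowest of all members and rests on these few counts. Rpl35 is overlapped over all of its span by Wdr38, and Rpl23a over 36.9% by Tlcd1, both on the opposite strand. Annotated genes on the opposite strand also cover 70.3% of the span of Rps28 and all of those of Rps27rt, Rps4l and Rpl7l1. Overlap did not always go with a low level, since Rpl13, covered over all of its span by Gm20388 on the same strand, stood at 434 ± 10.6 CPM per kilobase in mild kidneys. How the deposited counts divide reads between such genes is not given in the sources used here, so the levels of all these overlapped genes are uncertain.

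Many members also have near-identical copies elsewhere in the genome. In 49 of the 77 canonical genes, 50% or more of the 50-base words of the transcript occur in other annotated transcripts. In the remaining 28 the share is under 50% but can still be large, as in Rps16 with 41.6%. The median log2 fold change was 0.07 in the first and 0.10 in the second set. The part of shared sequence in these values was not tested. For Rps27 the shared portion was 98.6% and for Rps27rt 91.1%, each the closest relative of the other, and their separate values are uncertain. For Rps2 it was 79.0%, shared with 71 other genes.

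The pyrimidine run did not separate the genes by fold change. The 45 canonical genes with a run near the annotated start had a median log2 fold change of 0.09, with 11 separated upward. The 12 without had a median of 0.11, with 4 separated upward. Genes with and without CCGGAAG had medians of 0.06 (24 genes) and 0.10 (33 genes).

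Genes that build, control and use ribosomes were examined from lists of related genes. No member of the 7 lists passed an adjusted p of 0.05 in edgeR. DESeq2 called 2, the snoRNA host Snhg5 and the cell-cycle inhibitor Cdkn1a, both higher, where it called 7.87% of all genes. Limma-voom called 0, against 0.0134% of all genes. Counts at an unadjusted p are from edgeR and stand against 15.8% of all genes higher and 7.89% lower. Counts of separated genes stand against 17.9% of all genes upward and 16.1% downward. Among genes with a mild mean of at least 50 CPM these shares were 8.86% and 35.9%.

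Among 41 ribosome biogenesis factors, which process rRNA and assemble subunits, the median log2 fold change was 0.04, with 5 separated upward and 4 downward and, at an unadjusted p under 0.05, 1 higher and 3 lower. Bysl, a factor of small-subunit maturation, stood at 20.7, 22.3 and 20.9 CPM in mild and 17.5, 15.96 and 18.2 CPM in severe libraries, all lower, at -0.30 ± 0.09. Taf1d, a subunit of the RNA polymerase I factor SL1, stood at 8.40, 8.43 and 8.57 against 9.76, 11.9 and 10.8 CPM, all higher, at 0.35 ± 0.12. Utp20, of the small-subunit processome, was at -0.31 ± 0.12 and overlapped. The median was 0.003 without severe library 14.

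Noncoding hosts of snoRNAs carry small RNAs that guide rRNA modification in their introns, and several have TOP tracts like the ribosomal protein genes. Of 15 such genes 13 were tested, with a median log2 fold change of 0.25, 4 separated upward and 1 downward, and 3 higher and 0 lower at an unadjusted p under 0.05. Snhg5 stood at 3.24, 3.11 and 3.57 CPM in mild and 4.82, 7.19 and 5.40 CPM in severe libraries, all higher, at 0.81 ± 0.20 (adjusted p = 0.1, edgeR). Gas5 stood at 54.7, 51.7 and 51.9 against 56.1, 76.8 and 63.5 CPM, also all higher, at 0.31 ± 0.12. Gm11974, the table's name for Snhg15, was at 0.60 ± 0.20 with all severe libraries higher. The list median was 0.15 without severe library 14 and 0.36 without severe library 13, where 2 of 13 members passed the threshold, both higher, against 13.8% of all genes.

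The list of 8 genes that link the 5S particle to p53 had a median of 0.11, with 2 separated upward and 1 downward and, unadjusted, 3 higher and 0 lower. Cdkn1a, which p53 induces, stood at 12.8, 14.8 and 15.4 CPM in mild and 27.1, 38.6 and 21.2 CPM in severe libraries. All severe values were higher, at 1.02 ± 0.21 (adjusted p = 0.0867, edgeR). Trp53 itself was at 0.36 ± 0.15 and overlapped, and Mdm4, an inhibitor of p53, was at 0.25 ± 0.11 with all severe libraries higher. The median was 0.04 without severe library 14, and Cdkn1a passed the threshold without library 13 and without library 14, as did 21.5% and 3.33% of all genes.

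Of 30 genes of mTOR signalling and TOP control, 15 lay above and 15 below 0, with a median of -0.02 that was 0.15 with library totals, where all genes stood at 0.17. Separated upward were 3 and downward 3, and at an unadjusted p under 0.05 there were 2 higher and 1 lower. Eif4ebp1, the translation repressor that mTOR phosphorylates, stood at 11.8, 13.04 and 15.3 CPM in mild and 16.3, 26.5 and 18.4 CPM in severe libraries, all higher, at 0.61 ± 0.19 (adjusted p = 0.137, edgeR). Its target, the cap-binding protein Eif4e, stood at 77.3, 81.8 and 75.3 against 70.2, 67.3 and 66.9 CPM, all lower, at -0.20 ± 0.07. The kinase Rps6ka2 was at 0.51 ± 0.17 with all severe libraries higher.

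Translation factors, of which many are TOP genes, had a median of 0.01 over 31 tested members, with 3 separated upward and 7 downward and 2 higher and 0 lower at an unadjusted p under 0.05. Eif3f, a subunit of the initiation factor eIF3, stood at 89.7, 106 and 110.5 CPM in mild and 117, 136 and 124 CPM in severe libraries, all higher, at 0.30 ± 0.11. Hnrnpa1, an RNA-binding protein with a TOP message, was at 0.44 ± 0.16 with all severe libraries higher, and the eIF3 subunit Eif3d was at 0.18 ± 0.10 and overlapped. The 18 tested genes of ribosome quality control, which rescue stalled ribosomes, had a median of -0.07, with 0 separated upward and 4 downward and 0 higher and 1 lower unadjusted. Hbs1l, a ribosome rescue factor, stood at 64.4, 64.2 and 64.9 against 59.6, 51.5 and 54.97 CPM, all lower, at -0.22 ± 0.08. The ufmylation adaptor Ddrgk1 and the deubiquitinase Usp10 were at -0.32 ± 0.15 and -0.17 ± 0.08, also with all severe libraries lower. With library totals the median of this list was 0.10, below the 0.17 of all genes.

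The proteins of the mitochondrial ribosome, which are encoded in the nucleus and translate mitochondrial messages, stood on the other side. Of 76 tested genes, 72 had a log2 fold change below 0, where 49.9% of all genes did, with a median of -0.20. All severe libraries stood below all mild ones for 33 of them and above for 0, against 16.1% and 17.9% of all genes, and at an unadjusted p under 0.05 there were 15 lower and 0 higher. Mrps23 stood at 58.9, 59.6 and 54.8 CPM in mild and 50.4, 39.1 and 45.1 CPM in severe libraries, all lower, at -0.36 ± 0.10 (adjusted p = 0.112, edgeR). Mrpl28 was at -0.39 ± 0.13 and Mrpl39 at -0.30 ± 0.10, both with all severe libraries lower. By library, the list median relative to the mild mean was -0.07, -0.18 and -0.38 in severe libraries 13, 15 and 14. The summed markers of proximal tubule and of loop, distal tubule and collecting duct have the same order. Those of fibroblasts, macrophages and injured tubule have the reverse order. The part of cell makeup in this list was not tested. Genes encoded in mitochondrial DNA took 10.4% to 10.7% of counts in mild libraries and 10.7%, 7.48% and 8.47% in severe libraries 13, 14 and 15. The list median was -0.11 without severe library 14 and -0.05 with library totals, and 17 of 76 members passed the threshold, all lower, without severe library 13, where 7.74% of all genes were called lower. The difference between cytosolic and mitochondrial ribosomal protein genes was not tested.

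Sample quality weights changed the calls. With limma-voom and weights, severe libraries 13, 14 and 15 had weights of 0.429, 0.178 and 4.33, so that library 15 carried most of the severe group. Under them 18.2% of all genes were called higher and 15.7% lower. Of the 85 members 3 were then called higher and 1 lower, among them Rplp2 and Rpl27a higher (adjusted p = 0.0258 and 0.0430, limma-voom) and Rps19bp1 lower (adjusted p = 0.0495, limma-voom). Rpl27a, at 184, 188 and 192 against 203, 223 and 209 CPM, was separated by library on the TMM scale. Over the other settings tried the lowest adjusted p of the called members was 0.0928, for Rps19bp1 without severe library 13 (edgeR). The same weights called 30 of 76 mitochondrial ribosomal protein genes lower. Of the other lists they called 3 hosts and 3 genes of the p53 link higher, with 0 lower in both. Higher and lower calls numbered 3 and 5 among biogenesis factors, 4 and 6 in mTOR and TOP control, 1 and 4 in quality control and 2 and 1 among translation factors.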

How the data were processed

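The authors deposited 1 table of raw counts, with 1 column of whole numbers for each library and 1 row for each Ensembl gene. Tools named in the submitters' processing notes are HTSeq 0.6.1, TopHat2 2.0.12 and Bowtie2 2.2.3, with build mm10. How overlapping genes and strands were counted, and with which annotation, is not given in the sources used here. Per the labels' protocols, RNA was selected by poly-T beads and primed with random hexamers, so short messages and messages with near-identical copies can be counted with bias. Column names gave the group by minutes of ischaemia, and their numbers match no sample title. Gene counts summed to between 15240491 and 17730967 per library, and a floor of 3 counts covers counting error only. The chi-square per degree of freedom between 2 libraries of a group was 3.67 to 5.34 for mild and 14.2 to 70.04 for severe libraries, so the libraries of a group differed beyond counting error, which does not show that they came from separate kidneys.

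Genes were filtered with filterByExpr, scaled by TMM and tested with the robust quasi-likelihood F test of edgeR 4.0.16 in R 4.3.3, with Benjamini-Hochberg adjustment over 14883 genes and a threshold of 0.05. CPM values use the TMM factors. Errors of log2 fold changes are standard errors, and list medians have no test. DESeq2 1.42.0, limma 3.58.1, other scalings and filters, an offset for length and GC content, and each library left out were tried as alternatives. The procedure was tested on simulated counts with the same spread in both groups. It recovered 0 of 50 genes changed 1.2-fold and 14 of 49 changed 1.5-fold. For 2-fold and 4-fold changes it recovered 42 of 50 and 49 of 49. Transcript lengths and shared 50-base words come from GENCODE M21, which holds all 87 genes, 51 with the same start and end. Overlaps come from the gene positions deposited with the counts. Start-site sequences come from the RefSeq promoter table, from 250 bases before to 50 after the start.

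The naming rule uses no measured value, but the choice of this gene family and of the lists was made with earlier results of these data known. Named genes are the 6 highest and 6 lowest by fold change, the 5 highest and 5 lowest by level per length, the stalk genes, the paralogs, the ribosomal proteins outside the naming rule, Rpl5, Rpl11, Rps6, Rpl22 and Rps27, and up to 3 genes per related list with the smallest p. Genes outside this rule are Rpl7, Rps19, Rpl27a, Rpl13 and Rpl15, and values of some genes that the rule takes in are not reported here.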

Additional observations from a re-analysis of the deposited data

How the results depend on the processing

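The median over the members stayed above 0 in every setting tried, between 0.04 and 0.12 when 1 library was left out, 0.26 with library totals, 0.09 over the members with under 50% of their words shared, and 0.0045 when the libraries were scaled to the summed canonical counts, a setting added after seeing the data that centres the family by construction. The cause of the other changes was not tested. With library totals the medians were 0.26 for canonical, 0.30 for small-subunit, 0.25 for large-subunit and 0.065 for paralog genes, 0.29 for the 5S and p53 list, -0.045 for mitochondrial ribosomal proteins, 0.15 for mTOR and TOP control, 0.22 for biogenesis, 0.10 for quality control, 0.43 for snoRNA hosts and 0.18 for translation factors, where all genes stood at 0.17. There 45 members were separated upward (29.2% of all genes) and 1 downward (6.63%), and 0 genes of the whole table were called lower. With an offset for length and GC content the large-subunit median was 0.15, and the median over the members 0.15, with 32 members separated upward (18.1% of all genes) and 1 downward (16.8%), and 2 genes were called lower. Scaled to the canonical counts, 11 members were separated upward (13.7% of all genes) and 6 downward (21.6%). The mTOR and TOP median was 0.017 with upper-quartile scaling, -0.045 with quality weights, and between -0.021 and 0.012 with 1 library left out. Members separated numbered 21 to 48 upward and 2 to 6 downward with 1 library left out, among them 33 upward without severe library 13 and 4 downward without severe library 14 or mild library 9. Of all genes, 20.1% to 29.7% were separated upward and 18.9% to 26.8% downward in these fits.

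All genes past the threshold numbered 1 higher and 1 lower in edgeR, 134 and 12 with no filter, 1029 and 142 with DESeq2, and 2706 and 2335 with quality weights, where 3 members were higher and 1 lower. With 1 library left out they numbered 0 to 2093 higher and 0 to 1176 lower, the most without severe library 13, and 361 and 140 without severe library 14. In each of these leave-one-out fits 0 members passed, with 0 to 9 higher and 0 to 2 lower at an unadjusted p under 0.05. Of all genes, 11% to 21.1% were higher and 2.88% to 17.3% lower in these fits. No paired analysis was possible because the groups share no replicate number. A planned comparison of members unique in the genome was not run, and the shared words of annotated transcripts were used in its place. The severe group holds only 3 libraries that differ widely, so differences of the size measured here were not detectable for single genes.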

Other observations

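Rows named as pseudogenes of ribosomal proteins, which the naming rule leaves out, numbered 246, of which 132 had counts. As a share of the canonical counts, they came to 0.477% in mild library 7, 0.466% in library 8 and 0.493% in library 9. The severe values were 0.492% in library 13, 0.550% in library 14 and 0.494% in library 15. Library 14 was the highest here too, and the groups overlapped.

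The erythroid markers, read from haemoglobin and related genes, summed to 1.99 to 11.4 CPM in mild libraries and to 51.3, 7.31 and 6.88 CPM in severe libraries 13, 14 and 15. Library 13, the highest in blood genes, was among the severe libraries nearest to the mild ones in ribosomal protein level.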
